A study of Homo sapiens and Homo sapiens
Mus musculus with 19 samples.

Results

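The mouse genes examined here are 10 genes used to recognise pericytes and vascular smooth muscle cells, the mural cells that surround blood vessels. They were taken from the mouse count table by their symbols: *Acta2*, *Tagln*, *Myh11* and *Cnn1* of the contractile apparatus, and *Rgs5*, *Pdgfrb*, *Cspg4*, *Mcam*, *Notch3* and *Kcnj8* of pericytes. All 10 were found among the 49585 mouse genes of the table, and all 10 were among the 12758 that had enough counts to be tested.

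The tumors grew from SK-N-Be2c cells, an established human neuroblastoma (NB) line with amplified *MYCN*, after their injection into the left adrenal gland of athymic Swiss nude mice, which lack T cells. In 4 tumors the cells were Control cells, labelled as wild type, and in the other 4 the *TWIST1* gene, a transcription factor of embryonic development, had been targeted by CRISPR/Cas9 (sgTWIST1, labelled as TWIST1-KO). According to the labels the tumors were grown to 1000 cubic millimetres, so that they were matched for size and not for time. The hosts of both groups were of the same strain with the nude mutation, so the tumor cells differed by genotype and the mouse cells did not, and the labels do not tie a tumor to one of the clones grown in culture. The RNA came from whole pieces of tumor, in which human counts stand for tumor cells and mouse counts for stroma, meaning every host cell in the piece: vessels, fibroblasts, blood and any adrenal gland, muscle or fat taken along.

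Pericytes lie within the basement membrane of capillaries, in contact with the endothelium, and smooth muscle cells form the contractile layer of arterioles, arteries and veins. Endothelial cells recruit both by secreting PDGF-B, which binds the receptor encoded by *Pdgfrb* on mural cells, and Notch ligands on the endothelium signal to *Notch3* on its mural neighbours. Contractile genes such as *Acta2* and *Tagln* are also switched on in activated fibroblasts of tumors, so that they do not mark mural cells alone, while *Myh11* is more restricted to smooth muscle.

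The mouse part of the libraries was small and unequal in depth. Mouse counts made up 2.44% to 13.97% of all counts of a tumor, with 577479 to 7248286 mouse counts, and Control tumor 2 had the fewest. The mouse share averaged 8.97% ± 4.52 (SD, n = 4) in Control and 7.46% ± 4.62 (SD, n = 4) in sgTWIST1 tumors, a difference that an exact two-sided permutation test did not separate (p = 0.629, where the smallest possible p is 0.0286). A single ribosomal row, *Rn18s-rs5*, took 42.4% of the mouse counts of Control tumor 1, and a ribosomal repeat row, *AY036118*, took 33.2% in sgTWIST1 tumor 4 and none in the others. Human *TWIST1* was at 65.7 to 69.4 CPM, or counts scaled to the library size, in Control and at 14.04 to 37.4 CPM in sgTWIST1 tumors. The RNA was thus lower but present in the edited tumors (log2(FC) = 1.27, SE 0.24, adjusted p = 0.00543 in the edgeR quasi-likelihood test). RNA counts do not give the protein, and the paper reports that wild-type TWIST1 protein was lost in the edited cells. Throughout, log2(FC) is Control relative to sgTWIST1, and levels of mouse genes are CPM of the mouse counts after TMM normalization, which rescales each library to the bulk of its genes.

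No mouse pericyte or smooth muscle gene was differentially expressed (DE) between the stroma of Control and sgTWIST1 tumors. All 10 had an adjusted p of 0.9998 in edgeR's quasi-likelihood test with Benjamini-Hochberg adjustment over all mouse genes, where a call needed a value below 0.05 and a log2(FC) of 0.5 or more in either direction. That test called 0 of 12758 mouse genes (0%), while 657 (5.15%) had an unadjusted p below 0.05 and the Wald test of DESeq2 called 88 of the 16150 genes that it adjusted (0.545%). None of the 10 genes was below 0.05 without adjustment and none was called by DESeq2, which gave no adjusted p for *Kcnj8*. The levels of the groups overlapped for all 10, where 2.94% of all tested genes had groups that did not overlap. Of the log2(FC) values 8 of 10 were below 0, with a median of -0.14, beside 49.5% below 0 and a median of 0.0036 over all tested genes, whereas with libraries scaled to human plus mouse counts, which moved the median of all genes to 0.39, only 1 of the 10, *Tagln*, was below 0 and their median was 0.19. In whole pieces of tumor, fewer cells of a type and less RNA per cell cannot be told apart.

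**Figure D1:**
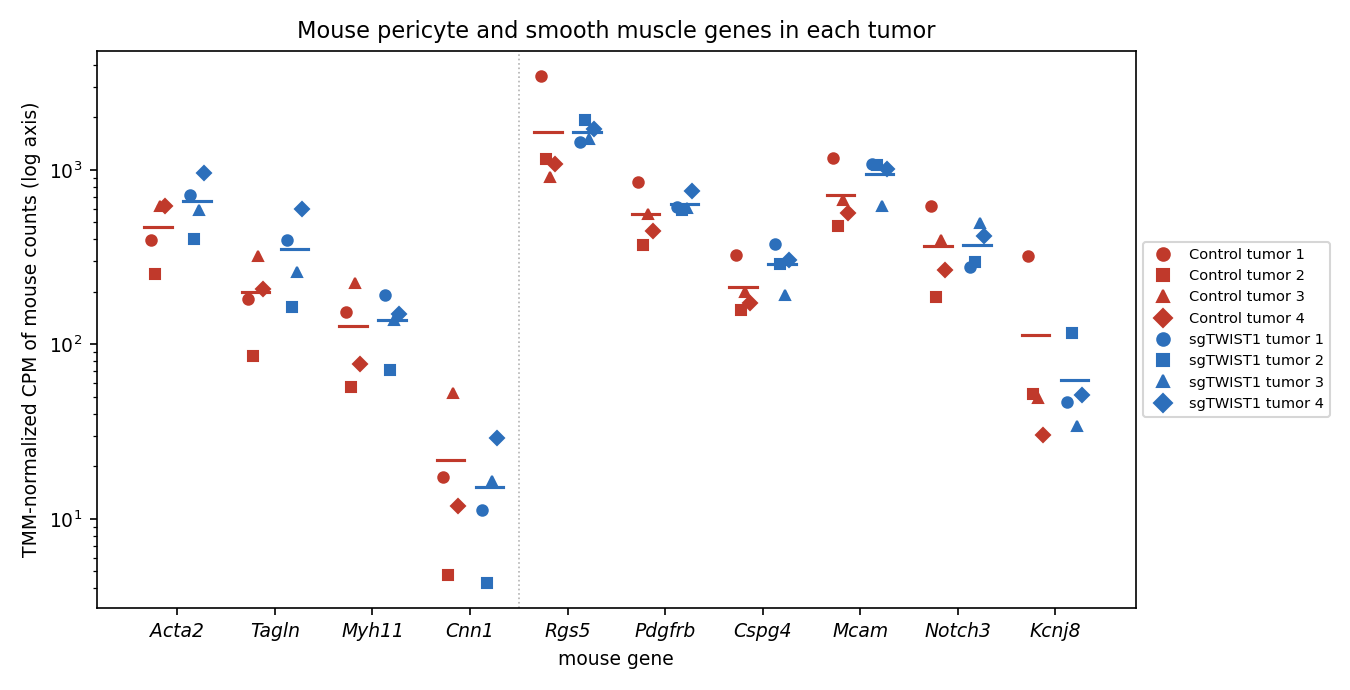
Level of each of the 10 mouse genes in each tumor, in TMM-normalized CPM of the mouse counts on a log axis. Each point is 1 tumor, with its shape giving the tumor number, each short line is the mean of 4 tumors, and the dotted line separates contractile from pericyte genes; the groups overlap for every gene, and Control tumor 1 (red circles) lies above the others for *Rgs5* and *Kcnj8*.

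The contractile genes varied within each group by more than the groups differed. *Acta2*, which encodes the smooth muscle actin, was at 395, 253, 617 and 616 CPM in Control tumors 1 to 4 and at 714, 401, 585 and 962 CPM in sgTWIST1 tumors 1 to 4. The highest level was thus in an edited tumor and the lowest in Control tumor 2, with both groups spread over 2.43-fold and 2.40-fold. Its log2(FC) was -0.50 (SE 0.35, 95% interval -1.28 to 0.29).

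*Tagln*, which encodes the actin-binding protein transgelin (SM22), had the smallest unadjusted p of the 10 genes. It was at 181, 85.2, 321 and 206 CPM in the Control tumors and at 394, 165, 258 and 599 CPM in the sgTWIST1 tumors. The Control mean was 198 ± 97.1 CPM and the sgTWIST1 mean 354 ± 189 CPM (SD, 4 tumors each). Control tumor 3 exceeded sgTWIST1 tumors 2 and 3, so the order of the means did not carry over to every tumor. The log2(FC) was -0.82 (SE 0.45, interval -1.81 to 0.17), so that a Control level between 0.285 and 1.13 times that of sgTWIST1 lay within the interval.

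*Myh11*, the smooth muscle myosin heavy chain and the most specific contractile gene of the group, was at 152, 56.8, 224 and 77.2 CPM in Control tumors. In sgTWIST1 tumors it was at 192, 71.2, 138 and 149 CPM. The lowest and the highest levels of the groups were close to each other, and the log2(FC) was -0.08 (SE 0.42, interval -1.02 to 0.86). *Cnn1*, which encodes the actin-binding calponin, was the least abundant in counts, with 2 counts in Control tumor 2 and 6 in sgTWIST1 tumor 2. It was at 17.3, 4.74, 52.4 and 11.9 CPM in Control and at 11.2, 4.31, 16.4 and 29.2 CPM in sgTWIST1 tumors. The count in Control tumor 2 was under the floor of 3 counts, which is 7.10 CPM in that library, so no level was detectable there. Control tumor 3 alone was above the other 7, and without it the log2(FC) of *Cnn1* went from 0.62 (SE 0.63) to -0.30.

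The pericyte genes were present in every tumor above the floor. *Rgs5*, a regulator of G-protein signalling and a widely used pericyte marker, was at 3445, 1153, 908 and 1078 CPM in Control tumors and at 1443, 1932, 1510.1 and 1718 CPM in sgTWIST1 tumors. The 3 other Control tumors lay below all 4 sgTWIST1 tumors, and Control tumor 1 lay above them all. The means were therefore nearly equal, at 1646 ± 1204 CPM and 1651 ± 221 CPM (SD, 4 tumors each), and the log2(FC) was -0.0037 (SE 0.43, interval -0.97 to 0.96). Without Control tumor 1 it was -0.66.

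*Kcnj8*, the pore-forming subunit of the ATP-sensitive potassium channel of mural cells, showed the same tumor apart from the rest. It was at 320.3, 52.1, 49.1 and 30.1 CPM in Control and at 46.7, 116, 34.1 and 51.3 CPM in sgTWIST1 tumors. The highest Control level was 10.7-fold above the lowest Control level. The log2(FC) was 0.90 (SE 0.72, interval -0.69 to 2.496) with all tumors and -0.53 without Control tumor 1, so its direction rested on that tumor. *Kcnj8* was also the only one of the 10 genes that was called DE under any alternative, with an adjusted p of 0.0320 and a log2(FC) of 0.98 in edgeR's test when no filter on low counts was applied. That setting called 497 of the 36113 mouse genes that it tested, and in it the SE of *Kcnj8* was 0.28.

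*Pdgfrb*, the receptor through which PDGF-B recruits mural cells, was at 855, 369, 557 and 446 CPM in Control tumors. In sgTWIST1 tumors it stayed within 587 to 755 CPM, the narrowest spread of the 10 genes at 1.29-fold, and its log2(FC) was -0.20 (SE 0.28, interval -0.82 to 0.42). Levels of *Notch3*, the Notch receptor of mural cells, were 621, 187, 394 and 268 CPM in Control and 277, 296, 496 and 417 CPM in sgTWIST1 tumors. Here again Control tumors supplied both the highest and the lowest level, and the log2(FC) was -0.0087 (SE 0.36, interval -0.81 to 0.79).

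The genes of pericyte surface proteins had lower means in Control on the TMM scale, and small positive log2(FC) values when libraries were scaled to human plus mouse counts (0.059 for *Cspg4* and 0.11 for *Mcam*). *Cspg4*, which encodes the proteoglycan NG2, was at 327, 156, 199 and 172 CPM in Control tumors and at 375, 287, 191 and 306 CPM in sgTWIST1 tumors. *Mcam*, which encodes the adhesion molecule CD146 found on pericytes and on endothelium, was at 1169.5, 476, 672 and 563 CPM in Control and at 1081, 1059, 623 and 1017 CPM in sgTWIST1 tumors. Both genes showed the same arrangement, with 3 Control tumors and sgTWIST1 tumor 3 at low levels and Control tumor 1 with the other 3 sgTWIST1 tumors at high levels. The log2(FC) was -0.43 for *Cspg4* (SE 0.29, interval -1.07 to 0.20) and -0.39 for *Mcam* (SE 0.33, interval -1.12 to 0.34). Without Control tumor 1 the log2(FC) was -0.72 for *Cspg4*, -0.73 for *Mcam* and, for the receptor *Pdgfrb*, -0.49. In that setting 9 of the 10 genes were below 0, where the median of all tested genes was -0.0068. In edgeR 3 of the 10 had an unadjusted p below 0.05, *Cspg4*, *Mcam* and *Rgs5*, beside 896 of all 13489 genes tested. The lowest adjusted p of the 10 was 0.603 in edgeR and none was called.

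Measured as the ratio of the highest to the lowest level, the spread was wider among Control than among sgTWIST1 tumors for all 10 genes. For *Acta2*, *Tagln* and *Cspg4* it was only slightly wider, and by SD *Acta2* and *Tagln* were the more variable in sgTWIST1 tumors. The highest Control level was 2.09-fold (*Cspg4*) to 11.1-fold (*Cnn1*) above the lowest, and the highest sgTWIST1 level 1.29-fold (*Pdgfrb*) to 6.77-fold (*Cnn1*) above the lowest. The difference in spread was not tested, and the share of all tested genes with a wider spread in Control was not counted. Outside the 10 genes both orders occurred, as endothelial *Flt1* spread wider in Control and endothelial *Vwf* wider in sgTWIST1 tumors. The Control group also held both the shallowest and the deepest mouse library, and the part of depth was not tested. The biological coefficient of variation that edgeR fitted for these genes was 31.3% to 67.8%, beside a median of 25.9% over all tested genes.

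The contractile and the pericyte genes did not follow the same tumors. Control tumor 1 was highest for 5 of the 6 pericyte genes and for none of the 4 contractile genes, and its median deviation from the mean log2 CPM of the 8 tumors was 0.70 over the pericyte and -0.03 over the contractile genes. Control tumor 3 was above the mean for all 4 contractile genes, with a median deviation of 0.67, and above it for only 1 of the 6 pericyte genes, with a median of -0.25. sgTWIST1 tumor 2 was below the mean for all 4 contractile and above it for 5 of 6 pericyte genes. Control tumor 2, the library of lowest depth, was below the mean for all 10 genes and the lowest of all tumors for 7. sgTWIST1 tumor 4 was above the mean for 9 of 10, the exception being *Kcnj8*.

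**Figure D2:**
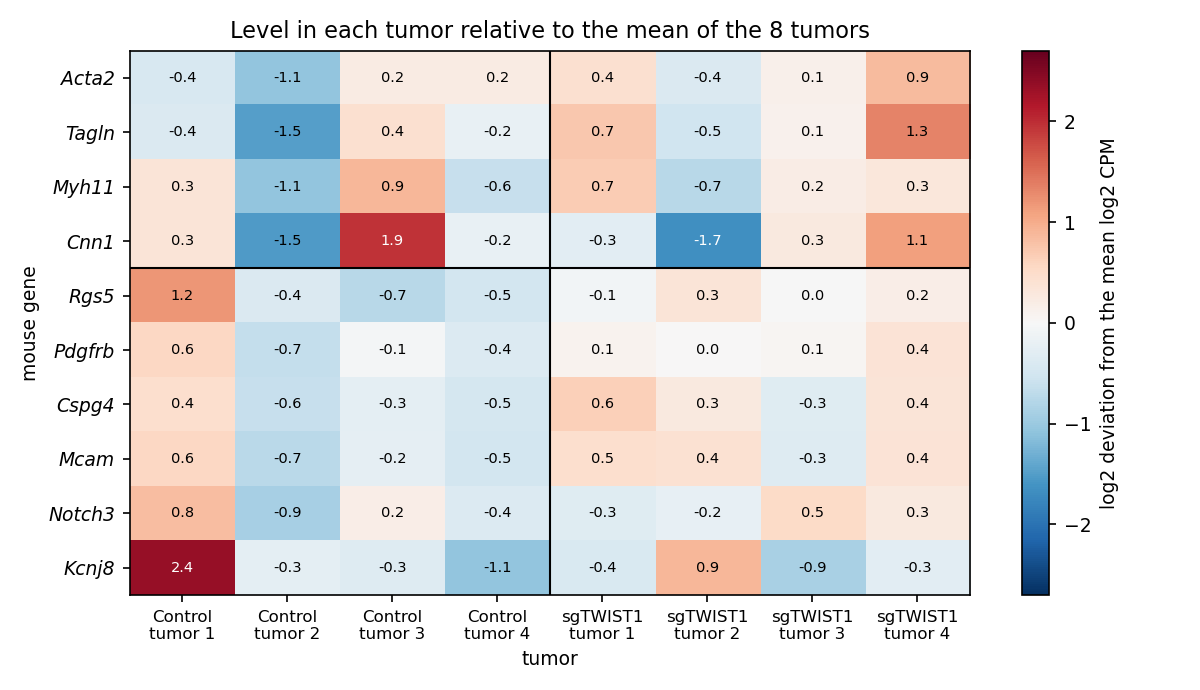
Deviation of each gene's log2 CPM in each tumor from its mean over the 8 tumors, with red above and blue below the mean and the value in log2 units in each cell. Lines separate contractile (top 4 rows) from pericyte genes and Control from sgTWIST1 tumors; the pericyte rows of Control tumor 1 are all red, and the column of Control tumor 2 is blue throughout.

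Since mural cells sit on vessels, the counts of the members were also set against those of 9 endothelial genes of the same tumor, a ratio that does not depend on library size or on ribosomal rows. The 6 pericyte genes include *Mcam*, which is also found on endothelium, so their ratio does not set mural against endothelial RNA alone. Together they had 1.41, 1.09, 1.07 and 1.06 counts for each endothelial count in Control tumors 1 to 4. In sgTWIST1 tumors the ratio was 0.928, 0.855, 1.34 and 1.26. The pericyte ratio thus varied over 1.64-fold across the 8 tumors, with sgTWIST1 tumors 1 and 2 below every Control tumor and sgTWIST1 tumors 3 and 4 between Control tumor 1 and the other 3.

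The 4 contractile genes together gave 0.155, 0.182, 0.468 and 0.379 counts for each endothelial count in Control tumors. The values were 0.317, 0.128, 0.387 and 0.514 in sgTWIST1 tumors. This ratio varied over 4.01-fold and overlapped between the groups as well. On the TMM scale the endothelial genes themselves had log2(FC) values from -0.58 to -0.08, with 9 of 9 below 0 and none called; the one of smallest unadjusted p was *Eng*, which encodes the co-receptor endoglin (log2(FC) = -0.58, SE 0.26). Their summed level was 2197 to 4793 CPM in Control and 2575 to 5005 CPM in sgTWIST1 tumors, and in Control the highest sum was that of tumor 1, as for the pericyte genes.

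**Figure D3:**
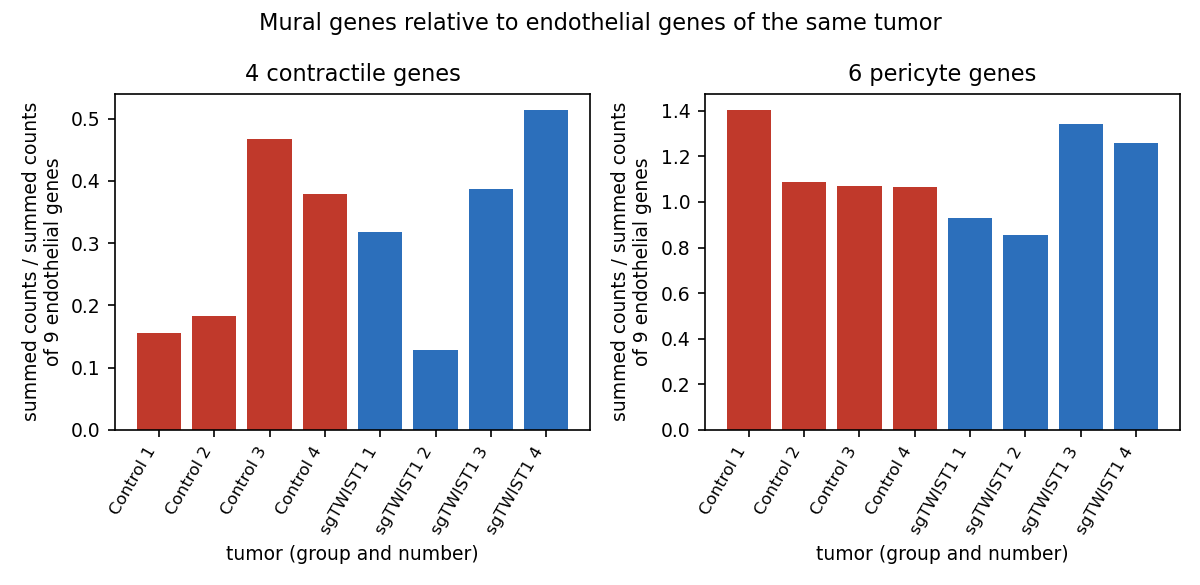
Summed counts of the 4 contractile genes (left) and of the 6 pericyte genes (right) divided by the summed counts of 9 endothelial genes, with 1 bar for each Control (red) and sgTWIST1 (blue) tumor. The contractile ratio runs from 0.128 to 0.514 and the pericyte ratio from 0.855 to 1.41, and the groups overlap in both.

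Fuller lists of the same cells and pathways, written from general knowledge, held no gene called DE by edgeR in the reported test, which filters low counts. With no filter, the setting that called *Kcnj8*, it called *Des*, *Art3*, *Steap4*, *Pdgfra* and *Hey1* higher and *Actg2* and *Tek* lower in Control, and *Des* was also called without Control tumors 1 and 2 and sgTWIST1 tumor 4. Of 14 further genes of smooth muscle contraction 13 were tested, and 8 of these had a log2(FC) below 0 (median of the 13 -0.11). The gene of smallest p above 0 was *Des*, the intermediate filament of muscle, at 107, 80.5, 341 and 234 CPM in Control and 49.6 to 82.1 CPM in sgTWIST1 tumors (log2(FC) = 1.55, SE 0.41, adjusted p = 0.566 in edgeR). DESeq2 gave *Des* an adjusted p of 0.0400 and called it. Desmin is also a protein of skeletal muscle, and 10 skeletal muscle genes summed to 39.4, 2235, 9274 and 6950 CPM in Control tumors 1 to 4 and to 20.8 to 279 CPM in sgTWIST1 tumors. The part of these cells in the level of *Des* was not tested.

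Below 0 the gene of smallest p was *Actg2*, the enteric smooth muscle actin, with 34.6 to 79.9 CPM in Control and 57.5 to 178 CPM in sgTWIST1 tumors (log2(FC) = -1.02, SE 0.38, adjusted p = 0.882). The actins are close to each other in sequence, so the division of reads between *Acta2*, *Actg2* and *Acta1* of skeletal muscle is uncertain. *Acta1* was at 3.54, 301, 803 and 625 CPM in Control and at 1.25 to 11.5 CPM in sgTWIST1 tumors, whereas *Acta2* was lowest in Control tumor 2 and highest in sgTWIST1 tumor 4.

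Of 17 further genes of pericytes and mural cells all 17 were tested, 14 of them with a log2(FC) above 0 on the TMM scale (median 0.21), where 5 of the 6 pericyte genes above were below 0. *Art3*, an ADP-ribosyltransferase, was at 57.5, 28.4, 26.3 and 21.7 CPM in Control and at 12.9 to 19.4 CPM in sgTWIST1 tumors, without overlap (log2(FC) = 1.09, SE 0.32, adjusted p = 0.616 in edgeR). *P2ry14*, a receptor for UDP-sugars, had the smallest p below 0 (log2(FC) = -0.88, SE 0.32, adjusted p = 0.866). *Steap4*, a metalloreductase, was the other gene of this list without overlap and is named because of its values. It was at 277, 66.3, 85.2 and 86.5 CPM in Control and at 5.19, 5.03, 56.4 and 26.3 CPM in sgTWIST1 tumors, and its adjusted p was 0.630 with a log2(FC) of 2.43 (SE 0.74).

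Among the ligands and partners of *Pdgfrb*, none of 5 genes was called by edgeR with its filter or by DESeq2, and none was below an unadjusted p of 0.05 in edgeR. The receptor gene *Pdgfra* was called with no filter, as given above. The smallest p in each direction belonged to *Pdgfd*, a ligand of the receptor encoded by *Pdgfrb* (log2(FC) = 0.58, SE 0.42), and to *Pdgfa*, a ligand of the alpha receptor (-0.22, SE 0.27). All 12 further genes of the Notch pathway were tested, and 10 had a log2(FC) below 0 (median -0.10). The exception that stood out was *Hey1*, a transcriptional repressor induced by Notch. It was at 78.3, 28.4, 43.9 and 35.5 CPM in Control and at 13.8, 17.3, 15.6 and 12.9 CPM in sgTWIST1 tumors, so that every Control tumor was above every sgTWIST1 tumor. Its log2(FC) was 1.69 (SE 0.30), with an adjusted p of 0.310 in edgeR and of 0.00305 in DESeq2. The ligand *Dll1* had the smallest p below 0 (log2(FC) = -0.79, SE 0.41).

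The angiopoietin and Tie genes join pericytes to endothelium, since pericytes make the ligand *Angpt1* and endothelium the receptor encoded by *Tek*. *Angpt1* had a log2(FC) of 0.41 (SE 0.47). *Tek* was at 16.6 to 68.8 CPM in Control and at 162, 146, 49.9 and 59.2 CPM in sgTWIST1 tumors 1 to 4, with a log2(FC) of -1.15 (SE 0.50) and an adjusted p of 0.958 in edgeR. The high levels of *Tek* were those of sgTWIST1 tumors 1 and 2, which also had the low pericyte ratios. *Tek* is itself an endothelial gene, and that ratio divides by endothelial counts. The 9 endothelial genes summed to 4134, 5005, 2575 and 3382 CPM in sgTWIST1 tumors 1 to 4. The 6 pericyte genes summed to 3838, 4277, 3458 and 4264 CPM in the same tumors.

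Some other host tissues were represented very unequally among the tumors. The 8 adrenal cortex genes summed to 10.3 to 22.0 CPM in Control and to 1311, 818, 20.5 and 8.76 CPM in sgTWIST1 tumors 1 to 4. The 8 fibroblast genes, mostly collagens and other matrix genes, summed to 16023, 7780, 40375 and 39737 CPM in Control and to 11984, 6230, 35765 and 38178 CPM in sgTWIST1 tumors, so that in both groups tumors 3 and 4 had the high sums. Adipocyte genes summed to 616 to 1174 CPM in Control and to 179 to 643 CPM in sgTWIST1 tumors. Mesothelial genes were low, at 14.2 to 148 CPM in Control and 0.719 to 19.1 CPM in sgTWIST1 tumors. The sums in Control and sgTWIST1 tumors were 1453 to 3983 and 1666 to 4003 CPM for macrophages. For Schwann cells they were 21.6 to 35.5 and 10.0 to 85.6 CPM. The range of sums overlapped between the groups for each of these tissues. No gene of these tissues was called by edgeR in the reported test. DESeq2 called 9 of the 10 skeletal muscle genes, the macrophage gene *Marco* and 3 mesothelial genes higher and the adrenal genes *Cyp21a1* and *Hsd3b1* lower in Control. edgeR called 8 skeletal muscle genes and *Msln* with human plus mouse library size, and 7 skeletal muscle genes and *Msln* without Control tumor 1. It called *Marco* and *Msln* without Control tumor 2, and *Mylpf* of skeletal muscle and *Msln* with the replicate number as a block. With endothelial counts as library size it called *Msln*. Without Control tumors 1 and 2 and sgTWIST1 tumor 4 it called 9 skeletal muscle genes, *Marco* and *Msln*. All of these were higher in Control. With no filter it called all 10 skeletal muscle, 4 adipocyte and 4 mesothelial genes, *Marco* and the fibroblast gene *Dcn* higher, and 6 adrenal and 2 Schwann cell genes lower. The part of these tissues in the levels of the mural genes was not tested.

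*Star*, which carries cholesterol into steroid-making mitochondria, was the only adrenal gene tested and had a log2(FC) of -4.03 (SE 1.26). *Msln*, a mesothelial surface protein, had the lowest adjusted p of all genes listed, 0.0947 in edgeR, with a log2(FC) of 5.03 (SE 0.66), and 5.8e-07 in DESeq2. Skeletal muscle *Acta1* had a log2(FC) of 6.87 (SE 1.36), with an adjusted p of 0.383 in edgeR and of 0.000382 in DESeq2, and the adipocyte hormone gene *Adipoq* of 2.35 (SE 1.03). For fibroblasts the values were 0.80 for the protease gene *Fap* (SE 0.56) and -0.11 for the matrix gene *Postn* (SE 0.57). For macrophages they were 0.23 for the receptor gene *Csf1r* (SE 0.28) and -0.08 for *Cd68* (SE 0.36), and for Schwann cells 0.94 for the myelin gene *Mbp* (SE 0.24) and -3.55 for the transcription factor *Sox10* (SE 1.14). The 10 mural genes had log2(FC) values from -0.82 to 0.90.

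Several of the 10 genes were also expressed by the human tumor cells, which shows in the human counts of the same libraries. The authors had left reads common to the 2 species in the human counts and taken them out of the mouse counts, so the mouse counts of sequences shared by both species are underestimates. Mouse counts made up 59.4% to 98.6% of the counts of the pair *Acta2* and *ACTA2*, the only pair with a mouse majority in all 8 tumors. For *Rgs5* and *RGS5* they made up 0.664% to 17.9%, and for *Kcnj8* and *KCNJ8* 2.56% to 36.0%, so that most of the RNA of these markers was human in every tumor.

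For 3 genes the majority species changed with the group. The mouse share of *Pdgfrb* and *PDGFRB* counts was 28.6%, 4.58%, 38.7% and 27.8% in Control and 69.3%, 64.6%, 88.3% and 75.4% in sgTWIST1 tumors. For *Mcam* and *MCAM* the shares were 85.7%, 35.2%, 90.7% and 87.3% in Control and 22.3%, 26.8%, 43.9% and 28.9% in sgTWIST1 tumors. For *Cspg4* and *CSPG4* they were 79.7%, 18.9%, 86.2% and 82.1% in Control and 34.8%, 25.2%, 34.2% and 20.5% in sgTWIST1 tumors. The exception to the order in the last 2 pairs was Control tumor 2, the tumor with the lowest mouse share of all counts. *Tagln*, *Myh11* and *Notch3* had a mouse majority in all tumors but Control tumor 2 and, for *Myh11*, sgTWIST1 tumor 2. *Cnn1* counts were 3.08% to 95.4% mouse.

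**Figure D4:**
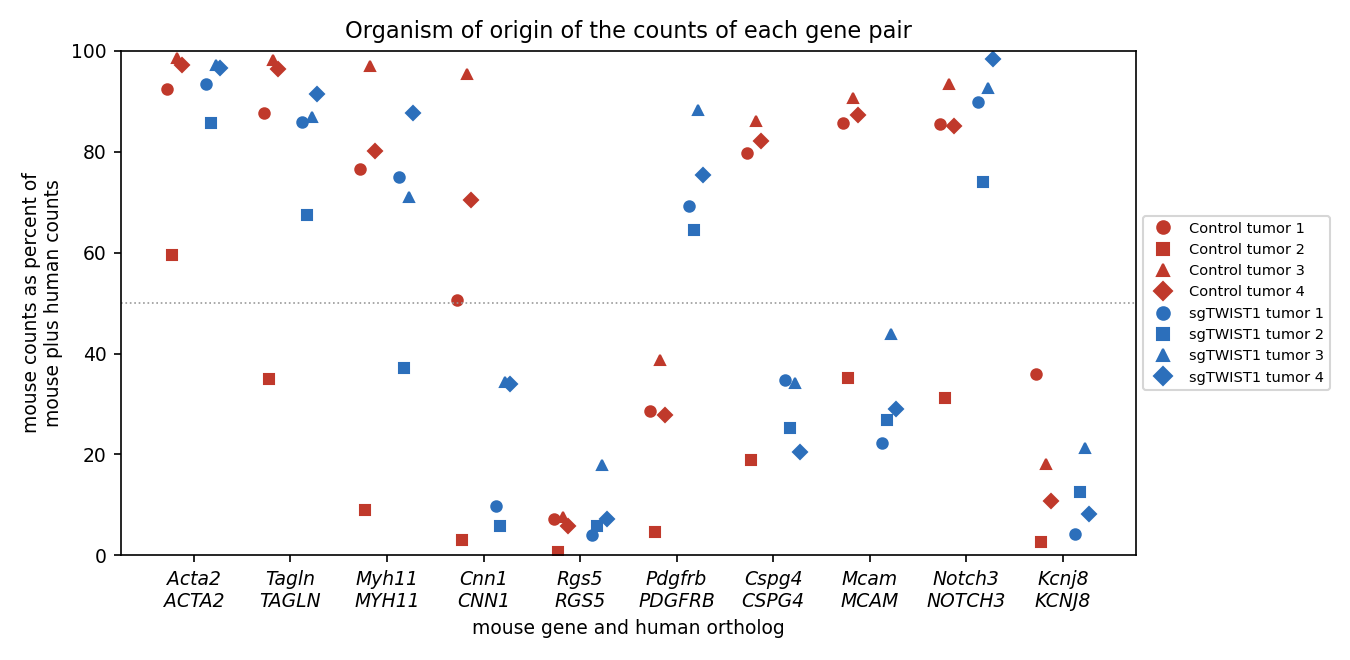
Mouse counts as a percent of mouse plus human counts for each of the 10 gene pairs in each tumor, from 0 to 100 with a dotted line at 50. Each point is 1 tumor, with its shape giving the tumor number; the pair of *Rgs5* stays at or below 17.9% in all tumors, and for *Pdgfrb* all 4 sgTWIST1 tumors are above all 4 Control tumors.

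In the human counts 5 of the 10 orthologs were DE between Control and sgTWIST1 tumors, 1 higher in Control and 4 lower, where a call needed an adjusted p below 0.05 and a log2(FC) of 1 or more in either direction. The same rule called 10.1% of the 23955 human genes tested, 5.28% higher and 4.85% lower in Control. The human levels are CPM of the human counts, normalized over cells and tumors together.

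*PDGFRB*, at chr5:149493402-149535435 on the minus strand of GRCh37, was at 110.3 to 192 CPM in Control and at 9.26 to 19.2 CPM in sgTWIST1 tumors. Its log2(FC) was 3.52 (SE 0.24, adjusted p = 1.8e-05 in edgeR). In cultured cells of the same line it was at 87.5 to 137 CPM in 3 Control and 10.2 to 16.6 CPM in 3 sgTWIST1 clones, so the difference between genotypes was present outside the mouse as well.

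*MCAM*, at chr11:119179239-119192231 on the minus strand, was at 12.4 to 14.95 CPM in Control and at 91.9 to 195 CPM in sgTWIST1 tumors (log2(FC) = -3.45, SE 0.24, adjusted p = 1.7e-05 in edgeR). In cells it was at 40.1 to 121 CPM in Control and 307 to 437 CPM in sgTWIST1 clones. *CSPG4*, at chr15:75966663-76005189 on the minus strand, was at 5.68 to 9.60 CPM in Control and at 33.4 to 92.8 CPM in sgTWIST1 tumors (log2(FC) = -2.85, SE 0.35, adjusted p = 0.000438). Its levels in cells overlapped, with 17.3 to 39.5 CPM in Control and 21.2 to 38.4 CPM in sgTWIST1 clones.

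The human contractile genes were low. *TAGLN* was at 1.19 to 2.27 CPM in Control and 3.11 to 4.55 CPM in sgTWIST1 tumors (log2(FC) = -1.24, SE 0.31, adjusted p = 0.0219 in edgeR). *CNN1* was at 0.554 to 2.14 CPM and 2.76 to 5.01 CPM (log2(FC) = -1.78, SE 0.44, adjusted p = 0.0196 in edgeR). The groups did not overlap for either gene, but both calls lay near the threshold. *TAGLN* was not called without Control tumor 1, 3 or 4 or sgTWIST1 tumor 4, with adjusted p = 0.0574 to 0.0799 in edgeR and log2(FC) from -1.29 to -1.10. *CNN1* was not called without Control tumor 1 or 4 or sgTWIST1 tumor 1, with adjusted p = 0.0614 to 0.0729 in edgeR and log2(FC) from -1.81 to -1.61. *ACTA2* stayed at 1.96 to 2.63 CPM in all 8 tumors, and *MYH11* ranged from 1.54 to 8.28 CPM, with log2(FC) values of -0.07 (SE 0.25) and -0.03 (SE 0.56).

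*RGS5* was the most abundant in counts of the human genes here, at 2394 to 3185 CPM in Control and 802 to 1712 CPM in sgTWIST1 tumors. Its log2(FC) of 0.99 (SE 0.25, adjusted p = 0.0224 in edgeR) fell just short of the threshold of 1, and it was 1.04 without Control tumor 2 and 1.14 without sgTWIST1 tumor 4, where the gene was called. Without Control tumor 1, 3 or 4 or sgTWIST1 tumor 1 or 2, its adjusted p in edgeR rose to 0.0568 to 0.154. With no filter the adjusted p was 0.316 in edgeR. Without sgTWIST1 tumor 3 the log2(FC) was 0.82, with an adjusted p of 0.0287 in edgeR. The groups did not overlap, as was so for 23% of all human genes tested. In cells *RGS5* was at 2759 to 3269 CPM in Control and 1099 to 1594 CPM in sgTWIST1 clones. *NOTCH3* was at 5.90 to 7.53 CPM in Control and 0.521 to 4.55 CPM in sgTWIST1 tumors (log2(FC) = 1.27, SE 0.55, adjusted p = 0.161), and *KCNJ8* had a log2(FC) of 0.13 (SE 0.31).

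The mouse genes and their human orthologs are set side by side in the plot of fold changes. For *Pdgfrb* the mouse interval ran from -0.82 to 0.42 and the human interval from 2.97 to 4.06, and for *Mcam* from -1.12 to 0.34 and from -3.98 to -2.92. For *Cspg4* the mouse interval ran from -1.07 to 0.20 and the human one from -3.63 to -2.07. The intervals of these 3 pairs did not overlap. Those of *Cnn1* missed each other narrowly, with a mouse interval that began at -0.77 and a human one that ended at -0.80, and those of the other 6 pairs overlapped. The difference between mouse and human log2(FC) was not tested.

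**Figure D5:**
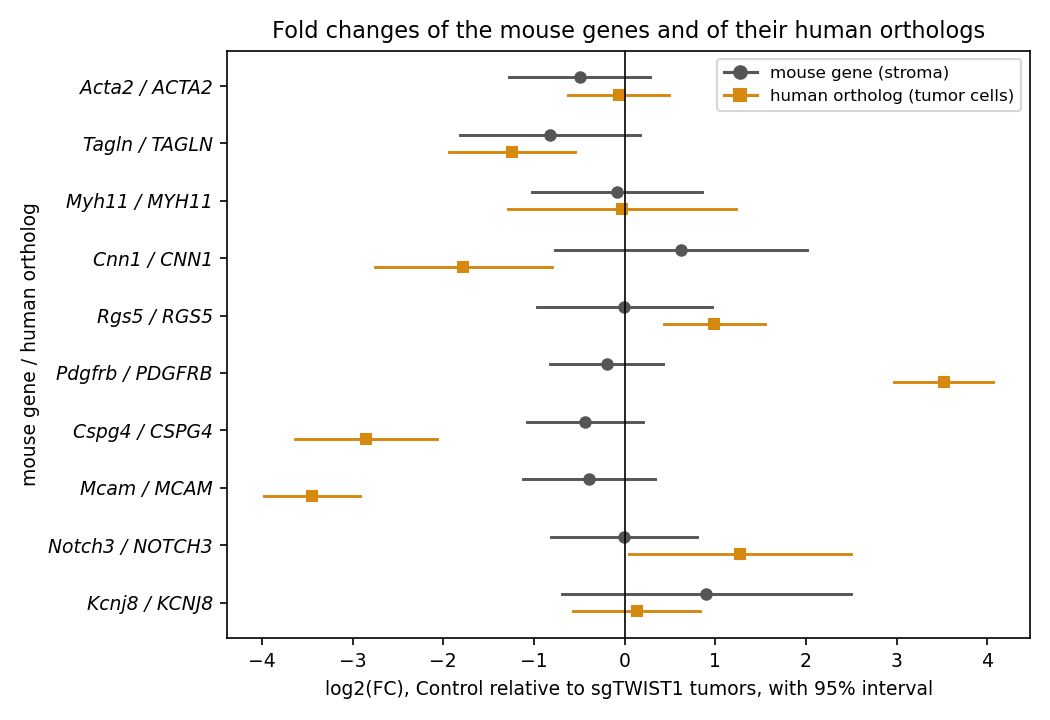
Log2(FC) of Control relative to sgTWIST1 tumors with its 95% interval for each of the 10 mouse genes (grey circles) and for its human ortholog (orange squares), with positive values for genes higher in Control. All 10 mouse intervals contain 0, while those of the human orthologs *TAGLN*, *CNN1*, *RGS5*, *PDGFRB*, *CSPG4*, *MCAM* and *NOTCH3* do not.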

How the data were processed

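RNA from the 8 tumors and from 6 cell clones, 19 samples in all, had been sequenced by the authors as single reads of 100 bases after depletion of ribosomal RNA. Reads were aligned by the authors with STAR 2.5.2b to hg19 and mm10 at once and split by organism, and the authors deposited the expected counts that RSEM 1.3.0 gave for each gene, not normalized. Reads matching both organisms were dropped from the mouse table only. Expected counts were rounded here, and batches of a clone were summed, except that sgTWIST1 clone 3 had only a single batch.

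Mouse and human counts were fitted separately in edgeR 4.0.16 (R 4.3.3) by its quasi-likelihood test, after filterByExpr and TMM, and p values were adjusted by Benjamini-Hochberg across every tested gene. SE and 95% intervals are from that fit. The study used DESeq2 1.26.0, and DESeq2 1.42.0 was an alternative here. Other alternatives were size factors, library sizes, filters, glmTreat, the replicate block and each tumor left out. Tests were checked on simulated counts. A floor of 3 counts is 0.347 to 7.10 CPM of mouse counts, and floors cover counting error only. Figures were drawn with matplotlib 3.10.9.

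The 10 genes and the other lists were chosen with earlier results of these data known. The text names the 10 genes with their orthologs and, from each other list, genes called DE and the gene of smallest p in each direction. The tumors are separate xenografts, and nothing in the labels says whether they shared a day of surgery. No mouse annotation was used, so mouse coordinates, gene lengths and sequences are not given, and levels are not compared between genes. Human coordinates are from GENCODE on GRCh37.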

Additional observations from a re-analysis of the deposited data

Results flagged for a closer look

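In 46 groups of 4 tumors, 7 had 1 tumor far from the other 3 by Dixon's criterion, which by chance marks about 1 in 20 groups. Of the 10 mouse genes, *Rgs5* was at 3445 CPM in Control tumor 1 beside 908 to 1153 CPM in the other Control tumors, and *Kcnj8* at 320.3 CPM in that tumor beside 30.1 to 52.1 CPM. *Mcam* was at 623 CPM in sgTWIST1 tumor 3 beside 1017 to 1081 CPM in the other sgTWIST1 tumors. Human *CSPG4* was at 92.8 CPM in sgTWIST1 tumor 4 beside 33.4 to 42.3 CPM.

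The other 3 values concern ribosomal rows of the mouse table. *Rn18s-rs5* took 42.4% of the mouse counts of Control tumor 1 beside 1.11% to 3.52% in the other Control tumors, and 12.9% in sgTWIST1 tumor 2 beside 2.83% to 4.37%. *AY036118* took 33.2% in sgTWIST1 tumor 4 and had no count in the other 3. Control tumor 1 thus stood apart for *Rgs5* and *Kcnj8* and for a ribosomal row. Their relation was not tested, and without ribosomal, 7SK and repeat rows, a setting chosen after seeing the data, none of the 10 genes was called.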

How the results depend on the processing

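None of the 10 mouse genes was called under any alternative except the fit with no filter, which called 1, *Kcnj8*. The number of mouse DE genes was 0 in the reported test, 88 with DESeq2 and 29 with human plus mouse library size. It was 497 of the 36113 genes tested with no filter. Without Control tumors 1 and 2 and sgTWIST1 tumor 4, a setting chosen after seeing the data, it was 56. With each tumor left out in turn it was 0 to 39, with 39 without Control tumor 1 and 7 without Control tumor 2. Human orthologs called DE numbered 3 to 6 with each tumor left out, where 5 were reported, and 3 without Control tumor 1 or Control tumor 4. The mouse share differed by 1.52 percentage points between groups, and by 0.285 to 3.69 with each tumor left out.

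Tumor numbers are shared by the groups, and the labels do not say whether they pair the tumors. To check this, each gene's group mean was subtracted from its log2 CPM, and the remainders were correlated between Control and sgTWIST1 tumors. Without that step, any 2 tumors correlated at 0.774 to 0.954 in mouse counts. The remainders of same-numbered tumors correlated at 0.0092 to 0.15 in mouse counts, with a mean of 0.078 beside -0.028 for other numbers. In human counts they correlated at -0.58 to 0.69, with a mean of 0.036 beside -0.0058. In mouse and human counts 3 and 2 of 8 tumors correlated best with their own number. So few tumors cannot settle whether the numbers pair them. With the replicate number as a block, 5 mouse genes were called, none of the 10 among them, and 5 human orthologs, with *RGS5* (log2(FC) = 1.03) in place of *TAGLN*. The block lowered the SE of mouse *Acta2* from 0.35 to 0.24 and of *Tagln* from 0.45 to 0.32. In that edgeR fit 1 of the 10 genes had an unadjusted p below 0.05, beside 647 of all 12758 genes tested. The lowest adjusted p of the 10 was 0.916 in that fit.

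The sign of several small differences turned. With human plus mouse library size, which moved the median log2(FC) of all genes to 0.39, the log2(FC) was 0.15 for *Acta2*, 0.49 for *Myh11*, 0.19 for *Rgs5*, 0.19 for *Pdgfrb*, 0.059 for *Cspg4*, 0.11 for *Mcam* and 0.24 for *Notch3*, so 7 genes turned positive and 1 stayed below 0, *Tagln*. Relative to that median all 7 but *Myh11* remained below. With the endothelial counts as library size, also chosen after seeing the data, the median was 0.35 and the values were 0.17 for *Myh11*, 0.16 for *Rgs5*, 0.046 for *Pdgfrb* and 0.12 for *Notch3*. *Rgs5* and *Notch3* were at 0.010 and 0.0059 with DESeq2 and at 0.065 and 0.080 with no filter, and *Rgs5* was at 0.0090 with DESeq2 size factors. Without the 3 tumors, *Acta2* was at 0.14, *Myh11* at 0.18, *Kcnj8* at -0.67 and human *ACTA2* at 0.0082.

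With each tumor left out in turn, *Rgs5* ranged from -0.66 to 0.21, *Notch3* from -0.39 to 0.20, *Myh11* from -0.49 to 0.13, *Kcnj8* from -0.53 to 1.39 and *Cnn1* from -0.30 to 1.12. Human *ACTA2* ranged from -0.12 to 0.035, *MYH11* from -0.64 to 0.32 and *KCNJ8* from -0.11 to 0.36. None of these values was called, and the causes were not tested. The median log2(FC) of the 10 genes was -0.51 without Control tumor 1 and 0.04 without Control tumor 2.

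Depth limits *Cnn1* most, with 2 counts in Control tumor 2. With 4 tumors a group, the intervals leave room for differences of about the size seen between tumors of a group, and an adjusted p above the threshold does not show that the groups had equal levels.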
